A study of Homo sapiens with 6 samples.

Results

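The genes of polyamine synthesis and breakdown were compared between C4-2B parental and C4-2B enzalutamide resistant cells. They are the 10 genes ODC1, AMD1, SRM, SMS, SAT1, PAOX, SMOX, OAZ1, OAZ2 and AZIN1, found by symbol among the 58024 genes of the table, with 1 row each. C4-2B (C42-B in the labels) is a human prostate cancer line of the LNCaP lineage, passed through castrated mice, and RNA-Seq was made of 3 libraries of parental and 3 libraries of resistant cells. The resistant cells came from passage in 1 to 20 µM enzalutamide, an antiandrogen drug, over 6 months or longer, with 5 µM maintained afterwards. They are the pooled survivors of this selection in 1 line, and not a set of independent clones. The parental cells carried the vehicle alone, given in the labels as 1% dimethyl sulfoxide, and both were grown in RPMI medium with serum. The authors' methods state an upper limit for the vehicle that is below 1%, so its concentration is not settled. The labels name a treatment with 10 µM enzalutamide at RNA extraction in a sentence that covers both lines, so that the exposure of the parental libraries cannot be settled. No label states that the libraries of a group were separate cultures, and p values therefore measure the spread between these libraries, which may be technical.

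Polyamines are small, positively charged molecules that bind nucleic acids and are needed for growth and translation, and the prostate is known for making and secreting them in large amounts under androgen control. ODC1 turns ornithine into putrescine. AMD1 makes the decarboxylated S-adenosylmethionine from which spermidine synthase (SRM) and spermine synthase (SMS) take the aminopropyl group for spermidine and then spermine. SAT1 acetylates spermidine and spermine for export or for oxidation by PAOX, and SMOX oxidises spermine directly. The antizymes OAZ1 and OAZ2 bind the ODC1 protein, send it to the proteasome and hold back polyamine uptake, while the antizyme inhibitor AZIN1 is an inactive relative of ODC1 that titrates the antizymes. ODC1, AMD1, SAT1 and the antizymes are strongly controlled in translation and protein turnover, which RNA levels do not show.

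The sequences before the start sites of 4 genes are shown because SRM, SMS and SAT1 had the largest decreases and ODC1, at the head of the pathway, did not pass the test. Each is the 250 bases upstream of the RefSeq start (GRCh38.p14), 5′ to 3′ on the strand of the gene. Capitals mark CACGTG, the E-box that MYC and MAX bind, and GGGCGG, the GC box, or its reverse complement CCGCCC. RefSeq windows were at hand for 7 of the 10 genes.
SRM, chr1:11060019-11060268, minus strand: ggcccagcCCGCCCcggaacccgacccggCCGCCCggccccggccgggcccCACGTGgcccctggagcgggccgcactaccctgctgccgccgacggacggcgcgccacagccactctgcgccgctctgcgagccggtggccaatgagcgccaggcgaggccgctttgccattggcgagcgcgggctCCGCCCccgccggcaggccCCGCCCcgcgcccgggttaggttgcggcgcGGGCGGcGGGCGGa
SMS, chrX:21940459-21940708, plus strand: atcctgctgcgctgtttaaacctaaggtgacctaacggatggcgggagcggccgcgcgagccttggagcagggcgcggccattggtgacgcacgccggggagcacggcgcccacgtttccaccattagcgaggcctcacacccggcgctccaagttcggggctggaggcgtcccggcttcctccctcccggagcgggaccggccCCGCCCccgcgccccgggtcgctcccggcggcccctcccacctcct
SAT1, chrX:23782923-23783172, plus strand: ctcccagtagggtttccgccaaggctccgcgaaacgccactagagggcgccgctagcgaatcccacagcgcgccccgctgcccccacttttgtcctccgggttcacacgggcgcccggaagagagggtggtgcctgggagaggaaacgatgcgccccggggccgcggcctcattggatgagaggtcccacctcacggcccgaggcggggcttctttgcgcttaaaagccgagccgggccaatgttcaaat
ODC1, chr2:10448328-10448577, minus strand: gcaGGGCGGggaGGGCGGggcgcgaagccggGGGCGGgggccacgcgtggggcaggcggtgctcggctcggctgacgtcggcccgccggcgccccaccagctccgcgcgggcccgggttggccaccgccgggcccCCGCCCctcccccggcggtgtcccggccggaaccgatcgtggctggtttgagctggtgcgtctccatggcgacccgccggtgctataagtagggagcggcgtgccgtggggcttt

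The SRM window holds 1 E-box, 199 to 194 bases before the start, and 6 GC boxes. ODC1 has 4 GC boxes and no E-box in this window, SMS has 1 GC box, and SAT1 has neither motif. E-boxes of ODC1 lie further in, within the first intron of its canonical transcript, and are shown because ODC1 is a textbook target of MYC.
ODC1 intron site 1, chr2:10448024-10448053, minus strand: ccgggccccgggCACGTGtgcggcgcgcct
ODC1 intron site 2, chr2:10447990-10448019, minus strand: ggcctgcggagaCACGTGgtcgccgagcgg
These E-boxes begin 286 and 320 bases downstream of the start. Of all 34943 RefSeq windows of 250 bases, 6.32% hold CACGTG and 42.5% hold GGGCGG or its complement. These matches describe letters in a window and no binding.

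The deposited values were FPKM, a level scaled to transcript length and to the mapped fragments of the library. They allow a comparison of genes with each other, while how the libraries were scaled to each other is not stated in the sources used here. A single non-coding RNA, RMRP, took 18.4% to 21.5% of the summed FPKM in the parental and 11.4% to 12.6% in the resistant libraries, and all short non-coding RNA together 23.3% to 26.0% and 25.7% to 27.3%. They were compared on log2(FPKM + 0.1) with limma over 24468 genes whose mean reached 0.1 FPKM, and a gene was called higher or lower where the two-sided p, adjusted after Benjamini and Hochberg (BH) over all of them, was below 0.05. All 10 polyamine genes passed the filter. Depth was estimated at 13400000 to 20300000 reads per library from the smallest values of genes with a single transcript, assuming fragments of 200 bases. In the bulk RNA, fewer cells with a transcript and less transcript per cell cannot be told apart. The cell type was described with 10 markers of prostate luminal cells, all above 0 in every library. The neuroendocrine marker ENO2 and the stromal marker ACTA2 were also above 0 in every library. Such values therefore do not establish the identity of the line. The summed level of the luminal markers was 4360 to 5122 FPKM in the parental and 1311 to 1415 FPKM in the resistant libraries, with 7 markers lower and 2 higher. Of 9 neuroendocrine markers, 6 were higher and none lower, and their sum was 7.19 to 11.4 FPKM in the parental and 209 to 233 FPKM in the resistant libraries. Of 7 stromal markers, 3 were higher and 1 lower, with sums of 9.54 to 12.0 FPKM in the parental and 10.9 to 17.9 FPKM in the resistant libraries. The neuroendocrine markers CHGA, CHGB, SCG2 and SCG3 and the stromal markers DCN and LUM passed the filter only through the resistant libraries. Their calls are therefore no support for a difference. Over all genes tested, 22.3% were called lower and 22.1% higher. The 5 leukocyte markers summed to less than 1 FPKM in every library, with CD3E at 0 in all of them. The sum of the luminal markers separated the groups, while those of the stromal and leukocyte markers overlapped. The neuroendocrine sum did not overlap either, but it holds CHGA, CHGB, SCG2 and SCG3. Most of that sum was ENO2, at 5.90 to 8.46 FPKM in the parental and 124 to 152 FPKM in the resistant libraries. The part of these cell type markers in the values of the polyamine genes was not tested.

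Resistant cells held less RNA of both aminopropyltransferases, of the acetylating enzyme SAT1 and of both antizymes, and more of the antizyme inhibitor AZIN1, while the RNA of the decarboxylases ODC1 and AMD1 did not pass the test. Of the 10 genes, 5 were lower (SRM, SMS, SAT1, OAZ1 and OAZ2), 1 was higher (AZIN1) and 4 were not called (ODC1, AMD1, PAOX and SMOX). Over all genes tested, 22.3% were called lower, 22.1% higher and 44.4% either way, and where the mean reached 1 FPKM 29.3% were lower, 25.7% higher and 55.1% either way. The 6 of 10 called either way is therefore near the background, and the count by itself does not set these genes apart. The decreases in SRM, SMS and SAT1 reached at least 2-fold with an adjusted p below 0.05, which 13.6% of all genes did in that direction. The median log2 difference of the 10 genes was −0.61, against −0.05 over all genes tested and −0.09 where the mean reached 1 FPKM. The values of both groups did not overlap in 8 of the 10 genes, against 54.8% of all genes. All 10 genes had a mean above 1 FPKM. The shares of 13.6% and 54.8% also cover lower genes and were not taken at that level, so they are no like comparison. With 3 libraries against 3, an exact two-sided permutation test of a single gene cannot go below p = 0.1, so each call rests on the limma fit, which shares the estimate of the spread between genes.

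**Figure D1:**
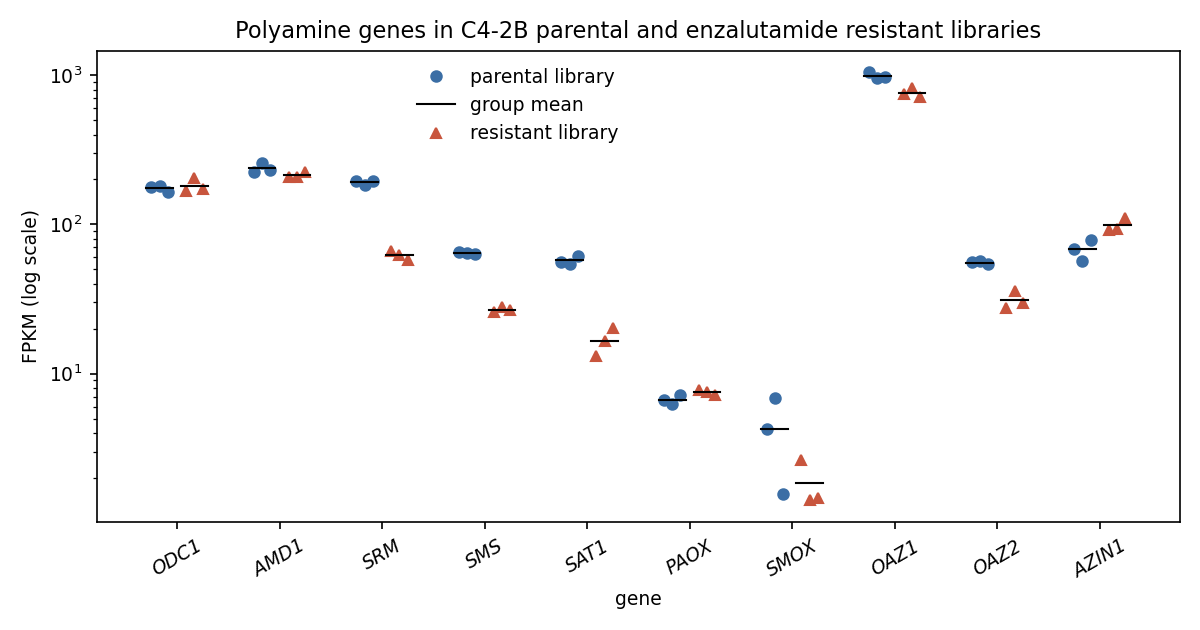
FPKM (log axis) of each polyamine gene in the 3 parental libraries (circles) and the 3 resistant libraries (triangles), with a line at each group mean. The resistant libraries lie clearly below the parental ones for SRM, SMS, SAT1 and OAZ2, above them for AZIN1, and among them for ODC1 and SMOX.

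ODC1, ornithine decarboxylase and the entry to the pathway (ENSG00000115758, chromosome 2, GRCh38, 10439968 to 10448327), stood at 179, 180 and 164 FPKM in parental cells and at 167, 204 and 173 FPKM in the resistant libraries. The groups overlapped, and the log2 difference was 0.05 with a 95% interval from −0.17 to 0.28 (limma, BH-adjusted p = 0.678). This interval leaves out a change as large as that of any of the genes called lower, but not a small change in either direction. Without resistant replicate 1, which had the highest value, the log2 difference was −0.035. AMD1, S-adenosylmethionine decarboxylase (ENSG00000123505, chromosome 6, 110874770 to 110898879), stood at 225, 257 and 230 FPKM in the parental and 206, 209 and 225 FPKM in the resistant libraries. All resistant values lay below the parental ones, by less than 1 FPKM at the closest, and the log2 difference of −0.15 (95% interval −0.33 to 0.03) was not called (limma, BH-adjusted p = 0.151). AMD1 and ODC1 were the most abundant enzymes of the group in the resistant cells, at 213 ± 9.86 and 181 ± 19.7 FPKM (SD, n = 3). Processed pseudogenes named for AMD1, SRM and ODC1 were each listed below 1 FPKM in every library.

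SRM, spermidine synthase (ENSG00000116649, chromosome 1, 11054584 to 11060020), fell most among the biosynthetic enzymes. It was at 195, 183 and 197 FPKM in parental cells and at 65.8, 62.7 and 57.3 FPKM in the resistant libraries. The lowest parental value was thus well above the highest resistant value, and the means of 192 ± 7.38 and 61.9 ± 4.30 FPKM (SD, n = 3 each) differed 3.09-fold. The log2 difference was −1.63 (standard error 0.08, limma, BH-adjusted p = 2.60e-05). SMS, spermine synthase (ENSG00000102172, chromosome X, 21940709 to 21994837), stood at 65.7, 64.5 and 63.3 FPKM in the parental and 25.9, 28.1 and 26.6 FPKM in the resistant libraries. The replicates of SMS were close to each other in both groups, and the resistant mean was 58.4% lower. Its log2 difference was −1.26 (standard error 0.07, limma, BH-adjusted p = 4.69e-05).

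SAT1, the spermidine and spermine N1-acetyltransferase (ENSG00000130066, chromosome X, 23783173 to 23786210), had the largest decrease of the 10 genes. It was at 56.2, 54.1 and 61.8 FPKM in parental cells and at 13.1, 16.5 and 20.2 FPKM in the resistant libraries. The resistant replicates varied more relative to their mean than the parental ones, and still all lay below a parental mean of 57.4 ± 3.95 FPKM (SD, n = 3), which was 3.46-fold the resistant mean. The log2 difference was −1.80 (standard error 0.16, limma, BH-adjusted p = 3.00e-04).

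The polyamine oxidases were the least abundant of the 10 genes and were not called. PAOX, the oxidase of acetylated polyamines in peroxisomes (ENSG00000148832, chromosome 10, 133379261 to 133391694), stood at 6.62, 6.23 and 7.21 FPKM in the parental and 7.73, 7.57 and 7.22 FPKM in the resistant libraries. The resistant values all lay above the parental ones, at the closest by 7.22 against 7.21 FPKM, and the log2 difference was 0.17 with a 95% interval from −0.13 to 0.46 (limma, BH-adjusted p = 0.316). SMOX, spermine oxidase (ENSG00000088826, chromosome 20, 4120980 to 4187747), stood at 4.22, 6.92 and 1.56 FPKM in the parental and 2.63, 1.42 and 1.48 FPKM in the resistant libraries. Parental replicate 2 was as low as the resistant libraries, the groups overlapped, and the log2 difference of −0.98 had a 95% interval from −2.33 to 0.37 (limma, BH-adjusted p = 0.201). Without parental replicate 2 the log2 difference of SMOX was −1.56 and was called (limma, BH-adjusted p = 0.0267), while without parental replicate 1 it was −0.52 (limma, BH-adjusted p = 0.463), so that size and call rest on these libraries. About 41 to 265 reads per library stand behind the SMOX values and 158 to 219 behind those of PAOX, at the estimated depths and the length of the canonical transcript.

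Both antizymes were lower in the resistant cells. OAZ1, the main antizyme and the most abundant transcript of the group (ENSG00000104904, chromosome 19, 2269509 to 2273490), stood at 1047, 951 and 970 FPKM in the parental and 751, 823 and 708 FPKM in the resistant libraries. The groups did not overlap, and the resistant mean was 23.1% lower. The log2 difference was −0.38 (standard error 0.08, limma, BH-adjusted p = 0.00876), and OAZ1 was not called without the mean-variance trend (limma, BH-adjusted p = 0.0565). OAZ2, an antizyme of the same family (ENSG00000180304, chromosome 15, 64687573 to 64703281), stood at 55.8, 56.5 and 53.9 FPKM in the parental and 27.4, 35.9 and 29.7 FPKM in the resistant libraries. Every resistant value was far below the parental ones, and the parental mean was 1.79-fold the resistant mean. The log2 difference was −0.84 (standard error 0.11, limma, BH-adjusted p = 0.00138).

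AZIN1, antizyme inhibitor 1 (ENSG00000155096, chromosome 8, 102826111 to 102893864), was the only one of the 10 genes called higher. It was at 68.7, 57.2 and 78.6 FPKM in the parental and 92.3, 93.6 and 111 FPKM in the resistant libraries. The groups did not overlap, the resistant mean was 45.2% higher, and the log2 difference was 0.54 (standard error 0.14, limma, BH-adjusted p = 0.0189). The call is a close one: the BH-adjusted p of the limma fit was 0.0512 without parental replicate 0, 0.0661 without resistant replicate 2 and 0.0547 without the mean-variance trend. The antisense gene AZIN1-AS1 overlaps AZIN1 and was at 3.66, 2.15 and 2.89 FPKM in the parental and 17.7, 13.7 and 11.5 FPKM in the resistant libraries. The kit is a stranded one, but whether the authors' values use the strand is not stated in the sources used here, so reads of this pair may not be told apart, and the part of AZIN1-AS1 in the AZIN1 value was not tested.

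**Figure D2:**
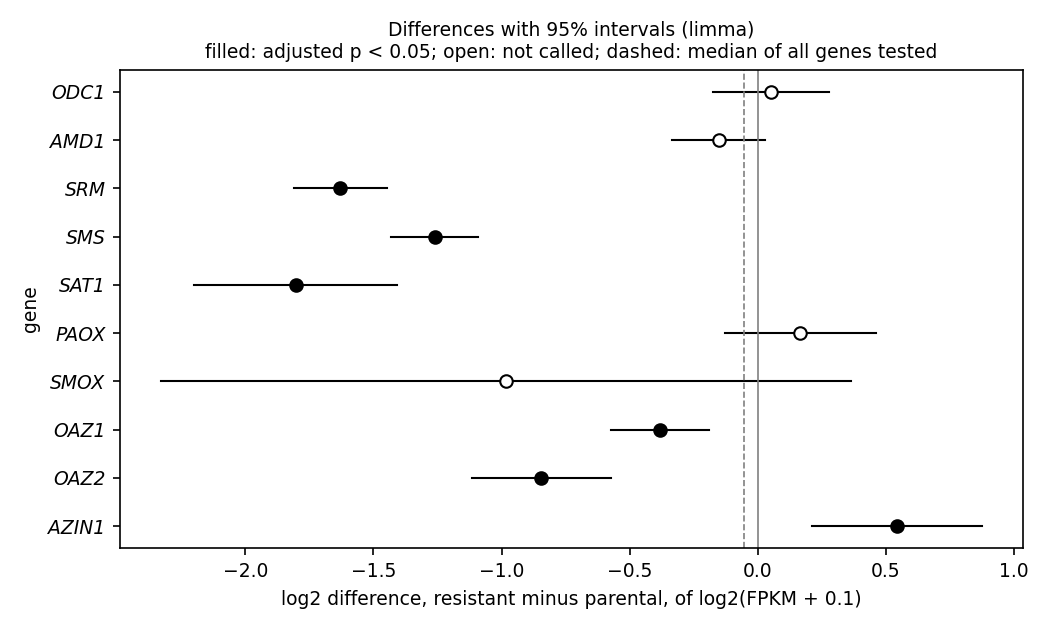
Log2 difference of log2(FPKM + 0.1), resistant minus parental, for each polyamine gene, with unadjusted 95% intervals from the limma fit over 3 libraries per group. Filled points passed an adjusted p of 0.05, the solid line is at 0 and the dashed line at −0.05, the median of all genes tested. SRM, SMS and SAT1 lie below −1, SMOX has the widest interval, and AZIN1 is the only filled point above 0.

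The order of levels within the group differed between the cells. In the parental cells the order by mean FPKM was OAZ1, AMD1, SRM, ODC1, AZIN1, SMS, SAT1, OAZ2, PAOX and SMOX, and the ranges of AZIN1 and SMS, of SAT1 and OAZ2, and of PAOX and SMOX overlapped. In the resistant cells it was OAZ1, AMD1, ODC1, AZIN1, SRM, OAZ2, SMS, SAT1, PAOX and SMOX, and among neighbours only the ranges of OAZ2 and SMS overlapped. SRM thus stood above ODC1 in the parental cells and below both ODC1 and AZIN1 in the resistant cells. The summed level of the 10 genes, most of it OAZ1, was 1817 to 1903 FPKM in the parental and 1359 to 1482 FPKM in the resistant libraries.

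A ratio of 2 genes within a library does not depend on how the libraries were scaled, and these ratios are given as descriptions with no test. ODC1 to OAZ1, the enzyme to its antizyme, was at 0.171, 0.189 and 0.169 in the parental and 0.223, 0.247 and 0.244 in the resistant libraries, 1.35-fold higher in the mean. AZIN1 to OAZ1, the inhibitor to the antizyme, was at 0.0657, 0.0602 and 0.0810 in the parental and 0.123, 0.114 and 0.157 in the resistant libraries, 1.90-fold higher. In both ratios the groups did not overlap. SRM to SMS was at 2.97, 2.84 and 3.11 in the parental and 2.54, 2.23 and 2.16 in the resistant libraries, so that SRM RNA was lower relative to SMS in each resistant library. SAT1 to SMS was at 0.855, 0.840 and 0.975 in the parental and 0.505, 0.589 and 0.758 in the resistant libraries. SMOX to PAOX ranged from 0.216 to 1.11 in the parental and from 0.187 to 0.341 in the resistant libraries, and overlapped. ODC1 to SRM, a ratio chosen after its values were seen, was at 0.916, 0.984 and 0.833 in the parental and 2.54, 3.25 and 3.02 in the resistant libraries. It was the largest of these shifts, at 3.22-fold.

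**Figure D3:**
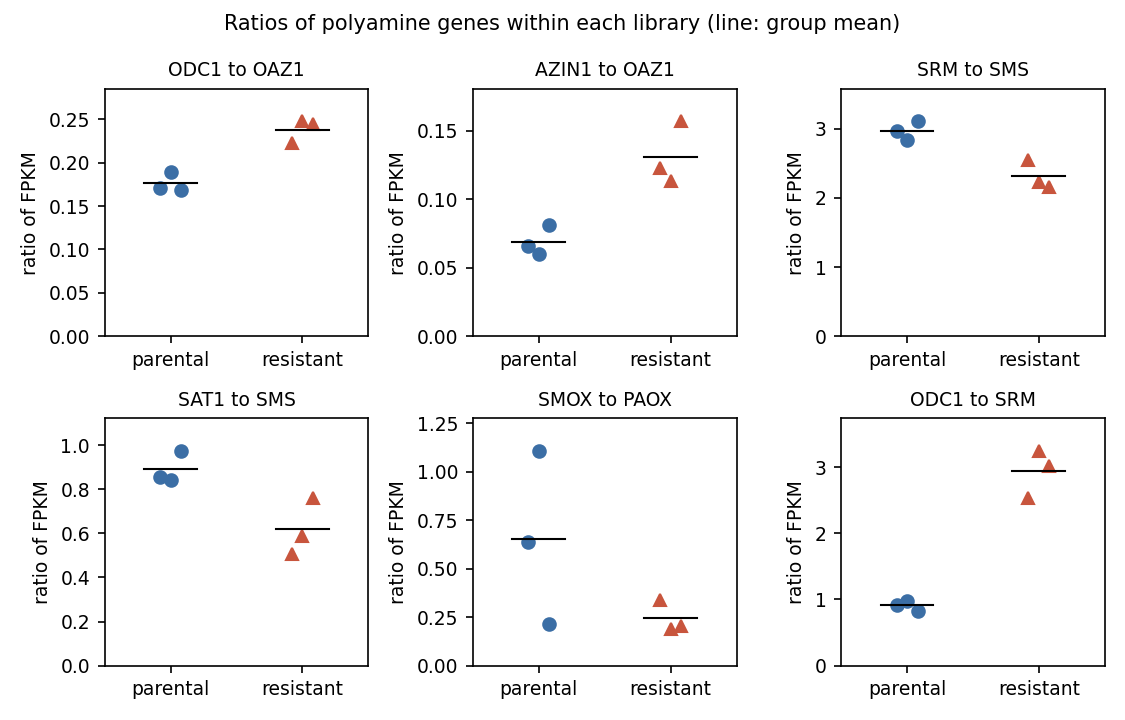
Ratio of the FPKM values of 2 polyamine genes within each library, in 3 parental (circles) and 3 resistant (triangles) libraries, with a line at each group mean and axes from 0. Apart from SMOX to PAOX, the groups do not overlap in any panel, and ODC1 to SRM rises from below 1 to above 2.5.

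The positions of the genes were compared with the protein-coding genes within 1 Mb whose mean reached 1 FPKM. Over all genes whose mean reached 1 FPKM, 29.3% were lower and 25.7% higher. Around SRM, 26 neighbours had a median log2 difference of −0.33, with 11 lower and 4 higher, and SRM itself was at −1.63. Around OAZ1, 51 neighbours had a median of −0.34, close to the −0.38 of OAZ1, with 22 lower and 7 higher. Around OAZ2, 26 neighbours had a median of −0.34, and around AZIN1 the median of 9 neighbours was 0.16 with 3 higher and none lower. The neighbours of PAOX, AMD1 and SMOX went another way or moved little. Those of PAOX had a median of −0.63 with 4 lower and none higher, against 0.17 for PAOX, those of AMD1 a median of 0.31 against −0.15, and those of SMOX a median of 0.07 against −0.98. Around SMS the median of 3 neighbours was −0.38, in the same direction as SMS at −1.26, with 1 lower and none higher. Around SAT1 the median of 10 neighbours was −0.14, with 4 lower and 3 higher, and around ODC1 the median was 0.11. SMS and SAT1 lie 1842 kb apart on chromosome X. The 4 other protein-coding genes of this level between them are named here after their values were seen. ACOT9 was lower and PRDX4 was not called. PTCHD1 and DDX53 were called higher, but with parental means of 0.0207 and 0.0918 FPKM they passed the filter only through the resistant libraries. Their calls are therefore no support for a difference. ACOT9, with a resistant mean of 0.804 FPKM, reached 1 FPKM only through the parental libraries. The 416 protein-coding genes of the chromosome whose mean reached 1 FPKM had a median log2 difference of −0.18. The part of the regional values in these results was not tested.

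The genes that share the supply, fate and transport of polyamines were described from 5 lists of 51 genes, of which 45 were tested. Of these, 12 were higher, 13 lower and 20 not called, with a median log2 difference of 0.11 against −0.05 over all genes tested. The 25 of 45 called compare with the background of 44.4% of all genes and 55.1% of those whose mean reached 1 FPKM, and are therefore near it. With the replicate number as a block, 16 of these genes were called, 6 of them higher. With median ratio scaling, 16 were higher and 11 lower.

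Among the other enzymes and antizyme genes, 2 of 5 tested were higher and 1 lower, against 22.1% higher and 22.3% lower over all genes tested. AGMAT, agmatinase, which can make putrescine from agmatine, was at 0.0241, 0 and 0 FPKM in the parental and 1.81, 2.07 and 2.24 FPKM in the resistant libraries (limma, BH-adjusted p = 1.80e-04). AOC1, a diamine oxidase that breaks down putrescine, was listed at 0 in every parental library and at 0.396, 0.184 and 0.115 FPKM in the resistant libraries. AOC1 passed the filter only through the resistant libraries and its fitted difference depends on the pseudocount, so that its call, which 8 of its 15 alternatives did not keep, is no support for a difference, and AGMAT likewise passed only through the resistant libraries. OAZ3, a further antizyme gene best known from testis, fell to 7.55 ± 0.541 FPKM from a parental 12.5 ± 2.39 FPKM (SD, n = 3 each), a log2 difference of −0.71. AZIN2, a second antizyme inhibitor, was at 2.19 ± 1.02 and 4.11 ± 0.728 FPKM and was not called. SATL1 was at 0 in parental cells and at 0.0217 FPKM in 1 resistant library, and was too low to be tested.

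In the supply of arginine and ornithine, 4 of 10 tested genes were lower and none was higher, with a median log2 difference of −0.26. Over all genes tested, 22.3% were lower and 22.1% higher, and where the mean reached 1 FPKM 29.3% were lower and 25.7% higher. ASS1, argininosuccinate synthase, which feeds arginine synthesis, was at 21.7, 24.98 and 19.8 FPKM in the parental and 4.05, 7.20 and 4.92 FPKM in the resistant libraries. Its groups lay far apart, with a log2 difference of −2.05 (standard error 0.23, limma, BH-adjusted p = 6.34e-04). ARG2, the mitochondrial arginase that makes ornithine, fell from 28.6 ± 6.10 to 13.7 ± 2.16 FPKM (SD, n = 3 each), and PYCR1, a proline synthesis enzyme that draws on the same precursors, from 212 ± 1.79 to 123 ± 2.65 FPKM. ARG1, the cytosolic arginase, was at 0.2701, 0.207 and 0.336 FPKM in parental cells and listed at 0 in all resistant libraries. It passed the filter only through the parental libraries, and its log2 difference ran from −0.34 to −4.79 with the pseudocount. Its call, which was lost with the replicate number as a block (limma, BH-adjusted p = 0.0510), is therefore no support for a difference. SLC25A2, a mitochondrial ornithine carrier, was at 0 in the parental libraries and below 0.1 FPKM in the resistant libraries, and was not tested.

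In the methionine cycle and salvage list, which supplies S-adenosylmethionine to AMD1 and recycles the methylthioadenosine that SRM and SMS release, 5 of 12 genes were higher and 2 lower. These 7 of 12 are near the 55.1% called where the mean reached 1 FPKM. GNMT, the glycine N-methyltransferase that uses up S-adenosylmethionine, was at 26.7, 21.4 and 22.8 FPKM in the parental and 0.545, 1.07 and 1.48 FPKM in the resistant libraries. This was the largest decrease among the 45 tested genes of the 5 pathway lists, at a log2 difference of −4.48 (standard error 0.34, limma, BH-adjusted p = 1.42e-04). MAT2B, the regulatory subunit of methionine adenosyltransferase, rose from 26.6 ± 0.283 to 37.4 ± 2.98 FPKM, MTR, methionine synthase, from 27.4 ± 2.11 to 41.3 ± 3.84 FPKM, and ADI1, of the salvage route, from 63.8 ± 4.68 to 83.1 ± 6.95 FPKM (SD, n = 3 each). The call of ADI1 was lost without the variance trend and with any of parental replicates 0 and 2 and resistant replicates 0 and 1 left out (limma, BH-adjusted p of 0.0557 to 0.0700).

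Spermidine is also the source of hypusine, a modified lysine of the translation factor eIF5A. In this list of 5 genes, 1 was higher and 1 lower, near the 44.4% called either way over all genes tested. EIF5A was at 244, 230 and 230 FPKM in the parental and 267, 288 and 251 FPKM in the resistant libraries, higher in each resistant library but not called, with a log2 difference of 0.19 (limma, BH-adjusted p = 0.0705). After scaling to the protein-coding sum, the median ratio, without short non-coding RNA, or by quantiles, EIF5A was called higher, at limma, BH-adjusted p of 0.0198 to 0.0296. DHPS, deoxyhypusine synthase, was at 124 ± 15.7 and 133 ± 8.56 FPKM (SD, n = 3 each). DOHH, deoxyhypusine hydroxylase, was at 18.7 ± 3.61 and 13.1 ± 0.556 FPKM and was called lower by a narrow margin (limma, BH-adjusted p = 0.0446), a call that 12 of the 17 alternatives did not keep. EIF5AL1, a near copy of EIF5A whose reads may be shared with it, was at 0.692 to 1.29 FPKM in the parental and 1.77 to 2.44 FPKM in the resistant libraries, a call that 5 of 17 alternatives did not keep.

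Among genes tied to the transport of polyamines and their precursors, 4 of 13 tested were higher and 5 lower. These 9 of 13 compare with 44.4% called over all genes tested and 55.1% where the mean reached 1 FPKM. SLC22A16, among the higher ones, passed the filter only through the resistant libraries. SLC7A1, the main carrier of cationic amino acids including arginine and ornithine, was at 134, 127 and 135 FPKM in the parental and 44.9, 49.5 and 47.9 FPKM in the resistant libraries. The groups were well separated, with a log2 difference of −1.48 (standard error 0.07, limma, BH-adjusted p = 2.61e-05). SLC22A3, an organic cation carrier that takes polyamines among its substrates, fell from 18.1 ± 0.926 to 1.82 ± 0.0683 FPKM, and SLC12A8, linked with polyamine transport, from 40.8 ± 1.96 to 20.8 ± 2.16 FPKM (SD, n = 3 each). SLC47A1, a proton-coupled exporter of organic cations, went the other way, from 0.0968, 0.223 and 0.433 FPKM to 29.8, 44.7 and 35.4 FPKM. SLC22A2 was at 0 in the parental libraries and in 2 of the resistant ones, and ATP13A5 was at 0 in all resistant libraries and at most 0.198 FPKM in the parental ones, and neither was tested.

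**Figure D4:**
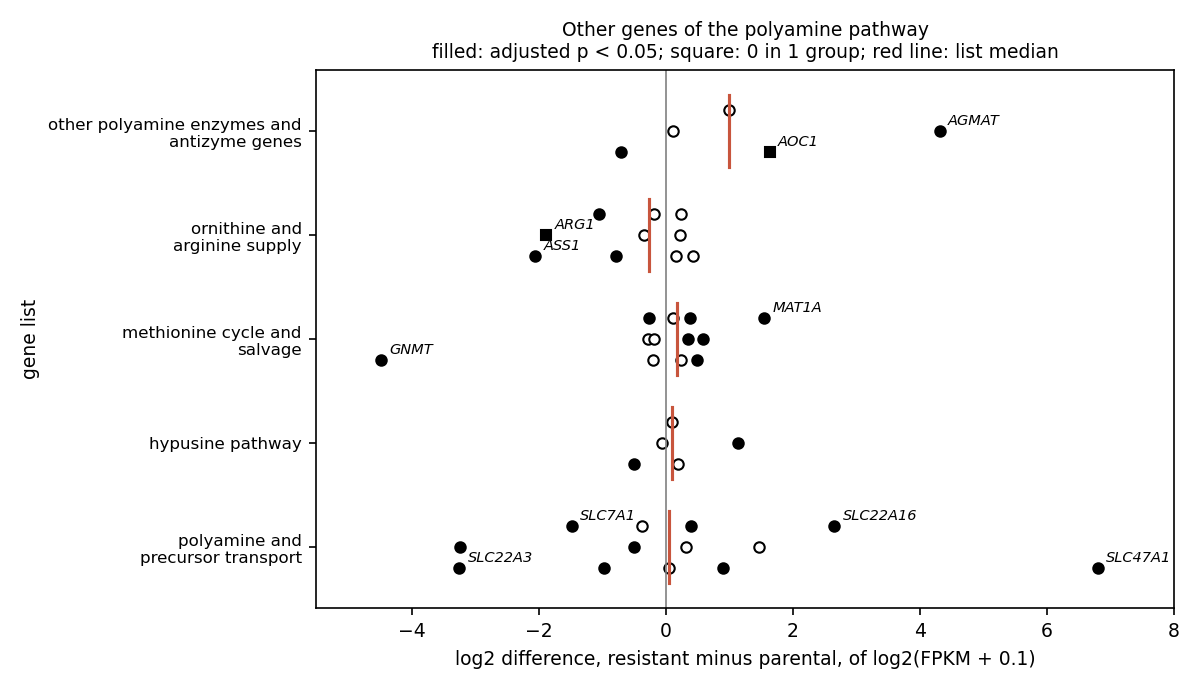
Log2 difference of log2(FPKM + 0.1), resistant minus parental, for the 45 tested genes of 5 lists around the polyamine pathway, with some of the genes beyond 1.4 in either direction named. Filled symbols passed an adjusted p of 0.05, squares are genes at 0 in all libraries of a group, whose fitted difference depends on the pseudocount, and red lines are list medians. GNMT lies lowest and SLC47A1 highest, and the ornithine and arginine supply list has no filled symbol above 0.

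Polyamine synthesis in prostate cells is known to follow androgens, and ODC1 to follow MYC, and the androgen-responsive gene KLK3 and MYC are set beside the pathway as values only. KLK3 fell from 2489, 2321 and 2857 FPKM to 46.8, 43.5 and 41.8 FPKM. MYC was at 207, 179 and 196 FPKM in the parental and 160, 187 and 186 FPKM in the resistant libraries, a log2 difference of −0.13 that was not called (limma, BH-adjusted p = 0.305). No relation of the polyamine genes to KLK3 or MYC was tested. The profiles over the 6 libraries most like that of ODC1, by the root mean square difference of centred log2 values among 16381 other genes whose mean reached 1 FPKM, were those of AP1B1 (0.0307), RPL8 (0.0343) and MVB12A (0.0363), none of which was called. A difference below 0.1 was found for 207 genes, so that many genes that vary little have such a profile.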

How the data were processed

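RNA-Seq values of 3 C4-2B parental and 3 C4-2B enzalutamide resistant libraries were used. FPKM values were deposited by the authors, whose methods name TrimGalore 0.4.3 for trimming of the 50 bp reads, STAR 2.5.3 for alignment (GRCh38, GENCODE v25) and Cufflinks 2.2.1 for the levels. The submitters' processing notes name mm10, Trimmomatic 0.27 and FastQC 0.10.1 instead. All 58024 identifiers of the table are human, and positions were taken from GENCODE v44 on GRCh38. The table gives no unit, no read counts and no statement on scaling between libraries. Estimated depths rest on values of which 38.6% to 54.6% lay within 0.1 of a whole read.

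The values were analysed as log2(FPKM + 0.1) where the mean of a gene reached 0.1 FPKM, with limma 3.58.1 (lmFit, eBayes with a mean-variance trend) in R 4.3.3 over the whole table, and adjusted over all genes by the Benjamini-Hochberg method at 0.05. Values within a library were also compared as ratios. The fit was tested on simulated data. Python 3.11.15, pandas 2.3.3 and matplotlib 3.10.9 were used for tables and figures. The polyamine genes and the lists were chosen with earlier results of these data known. Named genes were the 10 polyamine genes, the 4 genes of each pathway list with the smallest adjusted p, list genes at 0 in all libraries of a group, KLK3 and MYC, and the 3 genes nearest to ODC1 in profile. Some genes of the lists and of this rule are not reported here. Alternatives covered the pseudocount, the filter, the scaling, the variance trend, the prior, a replicate block and each library left out.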

Additional observations from a re-analysis of the deposited data

How the results depend on the processing

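SRM, SMS, SAT1 and OAZ2 were called lower under all 17 alternatives, with log2 differences of −1.67 to −1.51, −1.29 to −1.16, −1.95 to −1.64 and −0.95 to −0.75. The number of polyamine genes called ranged from 4 to 7, and the number called higher was 0 without the variance trend and 0 to 1 with each library left out. With each library left out, the log2 difference of ODC1 ranged from −0.035 without resistant replicate 1 to 0.11, and that of DHPS from −0.013 without parental replicate 1 to 0.15, none of them called. Deviations from the group means of same-numbered libraries correlated at −0.00301 to 0.0165, and those of differently numbered libraries at −0.026 to 0.0201. With 3 libraries per group, these values cannot settle whether the replicate numbers pair the libraries. With the replicate block, 6 polyamine genes were called as before, and 16 other genes of the pathway, 6 of them higher; the cause was not tested, although the block leaves fewer degrees of freedom. With each library left out, 6 to 10 of the other genes of the pathway were higher, fewest without parental replicate 0, resistant replicate 0 or resistant replicate 1, and 7 without parental replicate 2. Scaling raised the number: 16 were higher and 11 lower with median ratio scaling, 16 and 12 without short non-coding RNA, 14 and 12 with the protein-coding sum, and 13 and 11 with quantile normalization, against 12 and 13. Over all genes tested, 9021 to 11181 were called. The scaling moved the median log2 difference of all genes from −0.05 to at most 0.04. The scaling to the protein-coding sum and the ratio of ODC1 to SRM were chosen after seeing the data. The ratios kept their direction with each library left out. Without read counts, the counting error behind low genes such as SMOX could not be given.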

Other observations

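Some further genes of the pathway lists were called beside those described above. SLC3A2, the heavy chain that carries amino acid transporters to the membrane and has been tied to polyamine export, was at 203, 193 and 222 FPKM in the parental and 140, 143 and 155 FPKM in the resistant libraries. Its groups did not overlap, and the log2 difference was −0.50. ATP13A2, the lysosomal polyamine exporter, was at 26.0, 30.9 and 29.2 FPKM in the parental and 41.3, 34.7 and 37.0 FPKM in the resistant libraries, a log2 difference of 0.39. SLC18B1, a vesicular polyamine carrier, had a log2 difference of 0.91, called by a narrow margin (limma, BH-adjusted p = 0.0455). SLC22A16 rose from a parental level below 0.2 FPKM to 0.438, 1.62 and 1.47 FPKM. Its parental mean of 0.0946 FPKM lay below the filter of 0.1 FPKM, so that its call is no support for a difference. In the methionine cycle, MAT1A, the liver form of methionine adenosyltransferase, rose from 1.01 ± 0.267 to 3.38 ± 1.58 FPKM, and AHCY, which clears S-adenosylhomocysteine, fell from 193 ± 10.3 to 162 ± 8.39 FPKM (SD, n = 3 each). MTRR, which reactivates methionine synthase, had a log2 difference of 0.36 (limma, BH-adjusted p = 0.0377).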
